A study of Mus musculus with 2 samples.

Results

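The genes described here are 6 microRNA (miRNA) genes known from blood: Mir451a and Mir144 of red blood cell precursors, and Mir223, Mir146, Mir155 and Mir150 of white blood cells. They were chosen by gene symbol, and all 6 were found among the 1973 miRNA genes of the deposited tables. Counts came from microRNA sequencing of embryonic mouse lung, which reads RNA shorter than 30 nt. There was 1 group of 2 libraries, both from lung of B6NCrl embryos aged 14.5 days (E14.5), when airways branch, with no treatment or altered genotype named. The labels assign each library to the lung of a single pup, with different collection days, and also describe the sex as pooled, so the number of embryos per library is uncertain and replicate cannot be told apart from collection day. Whether blood was washed out of the lungs is not given in the sources used here.

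miRNAs are short RNAs that guide Argonaute proteins to messenger RNAs, mainly through their seed (bases 2 to 8). Red cell precursors transcribe Mir144 and Mir451a as 1 precursor RNA. miR-451a is unusual in that Dicer does not make it: its short hairpin is cut by Argonaute 2, and mice without the pair cope poorly with oxidative stress in red cells. Mir223 is a hallmark of neutrophils and other myeloid cells. Mir146 (the gene of miR-146a) and Mir155 are induced by inflammatory signalling, which miR-146a restrains through Traf6 and Irak1 and miR-155 promotes. Mir150 marks mature lymphocytes and targets Myb. In the embryo the fetal liver is the main site of red cell formation, and tissue macrophages settle in the lung before birth.

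Mature sequences from the 6 genes are shown with the seed in capitals, 5′ to 3′, because reads of this length are assigned to a gene only if the sequence is distinct. They are from RefSeq on GRCm38.p6 (the mm10 assembly), and for Mir144 both arms of the hairpin are given. For Mir150 the 3p arm is given because the sequences used here hold no entry for miR-150-5p, which is therefore not part of the comparison of seeds. The counts are per gene and do not show which arm of a hairpin the reads came from.
miR-451a: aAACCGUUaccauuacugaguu
miR-144-3p: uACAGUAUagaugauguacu
miR-144-5p: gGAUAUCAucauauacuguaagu
miR-223-3p: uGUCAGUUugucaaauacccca
miR-146a-5p: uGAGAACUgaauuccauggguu
miR-155-5p: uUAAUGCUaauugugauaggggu
miR-150-3p: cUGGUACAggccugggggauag
No 2 of these seeds are alike. Among the 1738 mature mouse miRNAs of the same table, miR-146a-5p was the 1 sequence shown whose seed recurred, in miR-146b-5p. The pair differ at G18A and U21C, with positions counted from the 5′ end and the base of miR-146a-5p given first.
miR-146b-5p: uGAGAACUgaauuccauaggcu
In the window of 20 nt used to look for shared sequence, Mir146 shared a stretch with Mir146b, and the other 5 genes shared none on the same strand with any miRNA gene of the tables. Mir146b itself held 3 counts in replicate 1 and 0 in replicate 2, so few reads were assigned to it.

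The hairpins of the erythroid pair are shown because their mature miRNAs lie differently in them. In Mir451a the mature miRNA, in capitals, fills bases 17 to 38 of a hairpin of 72 bases and runs across the loop.
Mir451a: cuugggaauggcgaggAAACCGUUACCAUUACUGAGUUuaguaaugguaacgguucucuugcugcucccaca
In Mir144 the capitals mark miR-144-3p, which lies in 1 arm, at bases 43 to 62 of 66.
Mir144: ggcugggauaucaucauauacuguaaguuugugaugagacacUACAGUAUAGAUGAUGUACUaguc
Both genes lie on the plus strand of chromosome 11 in mm10, Mir144 at chr11:78073005-78073070 and Mir451a at chr11:78073170-78073241, with 99 bases between them. Neither overlaps a host gene in GENCODE M21, but Mir451b is annotated on the opposite strand at the position of Mir451a. Mir223 lies on chromosome X (96242817 to 96242926, plus strand) within an exon of the noncoding gene F630028O10Rik. Mir155 lies on chromosome 16 (84714140 to 84714204, plus strand), inside an exon of its host transcript Mir155hg. Mir146 (chromosome 11, 43374397 to 43374461, minus strand) and Mir150 (chromosome 7, 45121757 to 45121821, plus strand) overlap no other annotated gene.

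Replicate 1 held 5128214 counts on the strand of a miRNA gene and replicate 2 held 2332032. Levels are counts per 1000000 such counts (CPM), so that 1 count equals 0.195 CPM for replicate 1 and 0.429 CPM for replicate 2. Intervals are 95% exact binomial intervals, and cover counting error alone since amplified reads need not be separate molecules. A read is taken to cover a whole mature miRNA, of 20 to 23 nt in these genes, so levels were compared between genes without a length correction. How readily each sequence enters a library was not measured. In bulk tissue, fewer cells of a type and less RNA per cell cannot be told apart. For scale, the leading miRNAs of 3 lung compartments are given. Mir126a of endothelium averaged 67235 ± 12441 CPM, Mir143 of smooth muscle 69405 ± 12610 CPM and the epithelial Mir429 14134 ± 1153 CPM (SD, n = 2). Mir145a, the other smooth muscle miRNA listed, averaged 1502 ± 45.8 CPM. Such compartments are not particular to lung, so these levels do not test the tissue label.

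All 6 blood genes were detected in both libraries, and together they were a small part of the library. Their sum was 6894 counts in replicate 1, which is 0.134% of counts (0.131 to 0.138), and 2891 counts in replicate 2, which is 0.124% (0.119 to 0.129). That sum was 56.6-fold below Mir126a in replicate 1 and 47.1-fold below it in replicate 2. Against the 5 epithelial miRNAs of the miR-200 family it was 24.8-fold lower in replicate 1 and 27.2-fold lower in replicate 2. The 6 genes ranked from 115 to 231 by level in replicate 1 and from 123 to 237 in replicate 2.

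Of the erythroid pair, Mir451a was by far the more abundant. Mir451a had 2023 counts in replicate 1, or 394 CPM (377 to 412), and 794 counts in replicate 2, or 340 CPM (317 to 365). Mir144 had 524 counts in replicate 1, or 102 CPM (93.6 to 111), and 119 counts in replicate 2, or 51.0 CPM (42.3 to 61.1). Both erythroid genes were higher in replicate 1, and the lowest Mir451a value stood well above the highest Mir144 value. The pair held 0.0497% of counts in replicate 1 (0.0478 to 0.0516) and 0.0392% in replicate 2 (0.0367 to 0.0418), a mean of 0.0444% ± 0.00744 (SD, n = 2).

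Among the white blood cell genes the myeloid Mir223 led. It had 3021 counts in replicate 1, or 589 CPM (568 to 610), and 1259 counts in replicate 2, or 540 CPM (510 to 571). Mir146, a brake on Toll-like receptor signalling, had 156 CPM in replicate 1 (146 to 168) and 186 CPM in replicate 2 (169 to 204). Mir155, which macrophages and lymphocytes make on activation, had 63.2 CPM in replicate 1 (56.5 to 70.4) and 88.8 CPM in replicate 2 (77.1 to 102). The lymphocyte gene Mir150 was the lowest of the 6, with 200 counts or 39.0 CPM in replicate 1 (33.8 to 44.8) and 78 counts or 33.4 CPM in replicate 2 (26.4 to 41.7). Mir223 and Mir150 were higher in replicate 1 while Mir146 and Mir155 were higher in replicate 2, and the 4 values of a library summed to nearly the same share. That share was 0.0848% of counts in replicate 1 (0.0823 to 0.0873) and 0.0848% in replicate 2 (0.0811 to 0.0886).

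**Figure D1:**
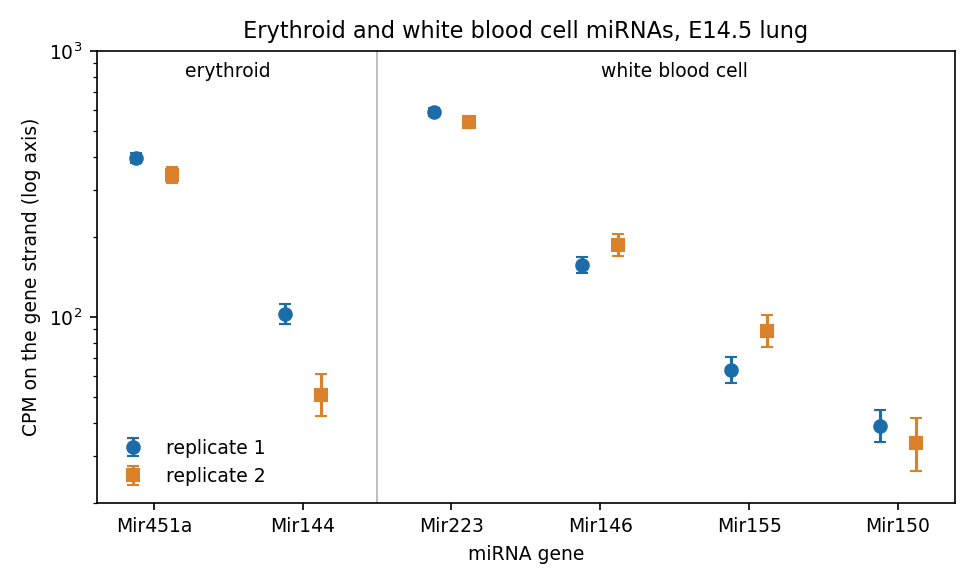
Level of each blood miRNA gene in CPM on a log axis, with replicate 1 as circles, replicate 2 as squares and bars for the 95% exact binomial interval. Mir223 and Mir451a lie highest in both libraries, and Mir144 shows the widest gap, with 102 CPM in replicate 1, against 51.0 CPM in replicate 2.

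The order of levels was Mir223, Mir451a, Mir146, then Mir144 and Mir155, then Mir150. Mir223 exceeded Mir451a in each library and the means differed by more than the spread, at 564 ± 34.8 CPM for Mir223 and 367 ± 38.2 CPM for Mir451a (SD, n = 2). Mir451a exceeded Mir146 by 2.52-fold in replicate 1, and in replicate 2 by 1.83-fold. The neighbours Mir144 and Mir155 were not ordered: Mir144 was 1.62-fold above Mir155 in replicate 1 and 1.74-fold below it in replicate 2, with means of 76.6 ± 36.2 CPM for Mir144 and 76.0 ± 18.1 CPM for Mir155. Mir150 stood below both in each library, at a mean of 36.2 ± 3.93 CPM. Over the 2 libraries the genes closest in level to Mir451a, by distance of log2(CPM + 1), were Mir543 (375 CPM in replicate 1, and 313 CPM in replicate 2) and Mir376c (356 CPM and 334 CPM in the same order). Those closest to Mir223 were Mir10b (563 CPM and 637 CPM) and Mir676 (676 CPM and 611 CPM).

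Summed erythroid counts were lower than summed white blood cell counts in both libraries. Within replicate 1 the erythroid sum was 2547 and the white blood cell sum 4347, a log2 ratio of -0.77 (-0.84 to -0.70), and within replicate 2 the sums were 913 and 1978, a log2 ratio of -1.12 (-1.23 to -1.0). The mean log2 ratio was -0.94 ± 0.24 (SD, n = 2), so the erythroid sum was 1.71-fold lower in replicate 1 and 2.17-fold lower in replicate 2. The lists have 2 and 4 members, and the direction depends on how they are combined. With the geometric mean of the members' CPM in place of the sum, the log2 ratio was 0.70 in replicate 1 and 0.00313 in replicate 2. The mean was 0.35 ± 0.49 (SD, n = 2), so replicate 1 favoured the erythroid genes and replicate 2 was nearly level. The leading genes alone gave a log2 ratio of Mir451a to Mir223 of -0.58 (-0.66 to -0.50) in replicate 1 and -0.67 (-0.80 to -0.54) in replicate 2. With 2 libraries the smallest p of an exact two-sided sign test is 0.5, and these ratios were therefore not tested.

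Although Mir451a and Mir144 come from neighbouring hairpins, their ratio was not the same in the libraries. Mir451a exceeded Mir144 by 3.86-fold in replicate 1, a log2 ratio of 1.95 (1.81 to 2.09), and by 6.67-fold in replicate 2, a log2 ratio of 2.74 (2.46 to 3.03). The counting intervals did not overlap, and the shift between libraries was 0.79 on the log2 scale. For comparison, 58 pairs of neighbouring miRNA genes lay on 1 strand within 1000 bases of each other with at least 100 counts per gene. Their median shift was 0.22 and their 90th percentile 0.53, and Mir144 with Mir451a had the 4th largest, a comparison chosen after the data had been seen. Several of these pairs come from 1 cluster and share genes, so they are not independent.

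**Figure D2:**
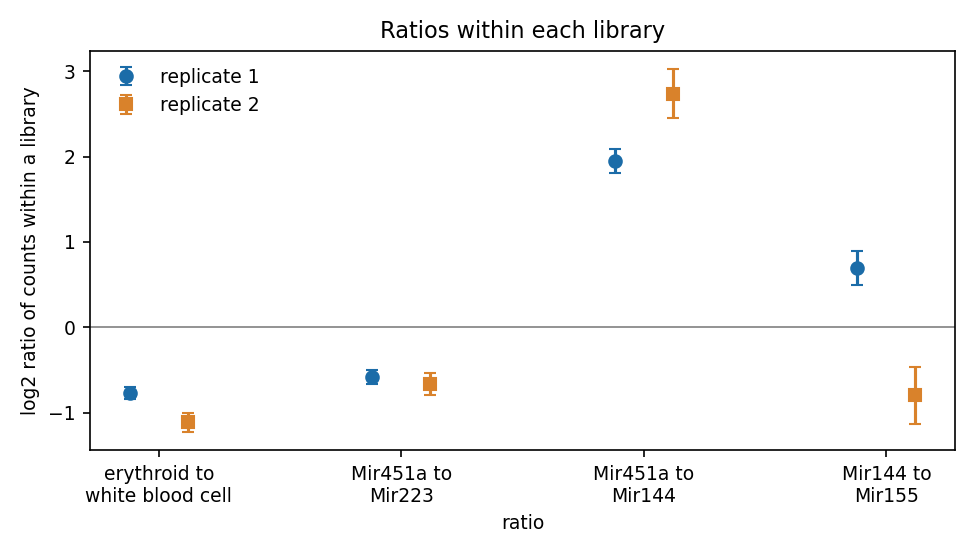
Log2 ratios of counts taken within each library, with replicate 1 as circles, replicate 2 as squares and bars for the 95% exact binomial interval. Mir451a to Mir223 lies at -0.58 in replicate 1 and -0.67 in replicate 2, whereas Mir144 to Mir155 lies at 0.69 in replicate 1 and -0.80 in replicate 2.

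Between the libraries, Mir144 differed most among the blood genes. Log2 ratios are of replicate 1 to replicate 2, of CPM scaled by TMM (trimmed mean of M values) with 1 CPM added. Exact binomial tests (two-sided, threshold an adjusted p of 0.05) called 41.8% of the 404 genes with at least 10 counts in all. They compare the reads of these libraries and not conditions. Of the 6 blood genes 4 passed, 3 of them higher in replicate 1 (all genes: 24.0%) and 1 higher in replicate 2 (all genes: 17.8%). Abundant genes pass this test more often, with 57.1% of genes of at least 10 CPM called, so the count of blood genes called does not set them apart.

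Mir144 was 2.11-fold higher in replicate 1, with 1.08 as its log2 ratio (counting interval 0.80 to 1.39; exact binomial adjusted p = 9.68e-15). It was the 1 blood gene past 1.5-fold, against 13.6% of all genes tested, and past 2-fold, against 3.71%. Among 272 genes with at least 100 counts in all, its difference was the 5th largest. Mir451a was higher in replicate 1 by a log2 ratio of 0.30 (0.18 to 0.42; exact binomial adjusted p = 1.94e-06) and Mir223 by 0.21 (0.12 to 0.31; exact binomial adjusted p = 3.07e-05). Mir155 was lower in replicate 1, at -0.40 (-0.66 to -0.14; exact binomial adjusted p = 0.00658).

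Mir146, at a log2 ratio of -0.16, and Mir150, at 0.30, did not pass (exact binomial adjusted p = 0.136 and 0.21). The median log2 ratio of the 6 genes was 0.26 and that of all genes tested 0.03, and the median absolute values were 0.30 and 0.23. When the common dispersion of the same libraries (0.0328) was added to counting error, edgeR's exact test passed none (0) of the 6 and 0.248% of all genes. Its adjusted p was 0.394 for Mir144. In edgeR's exact test 16 of the 404 genes had an unadjusted p under 0.05, and Mir144 was the 1 blood gene among them (p = 0.00683). That dispersion was estimated from the very libraries compared, so it already holds their differences, and few calls could be made. With library totals in place of TMM the 177 genes called split into 65 higher in replicate 1 and 112 higher in replicate 2, against 97 and 72 with TMM, and Mir146 then passed (log2 ratio -0.25, exact binomial adjusted p = 0.0107).

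**Figure D3:**
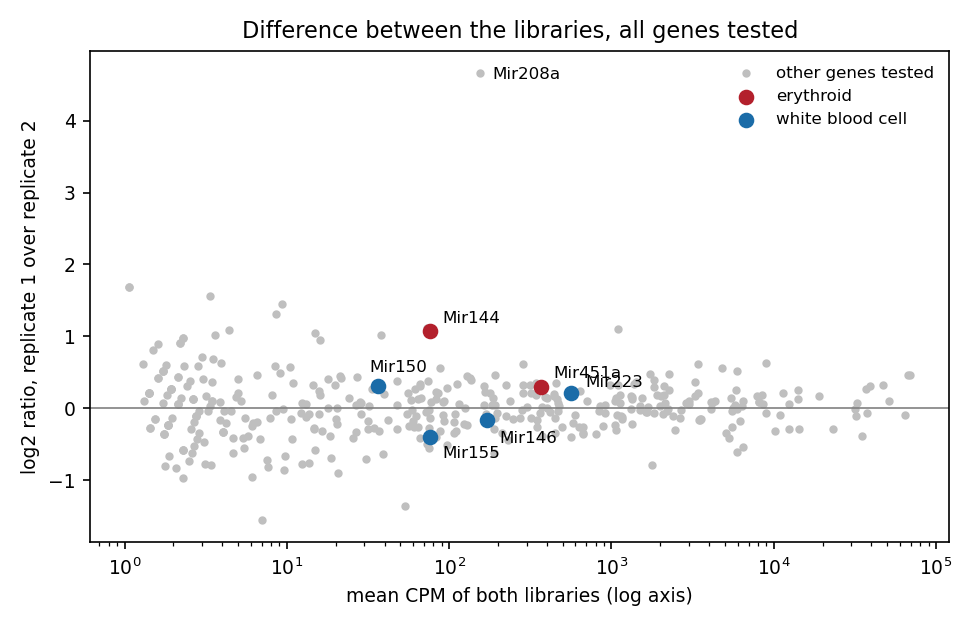
Log2 ratio of replicate 1 over replicate 2 (TMM-scaled CPM with 1 CPM added) against mean CPM on a log axis, 1 point per gene for the 404 genes tested. Mir144 lies at 1.08, outside most genes of like level, and the other blood genes lie between -0.40 and 0.30.

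Lists of other cell types differed between the libraries to unequal extents, and Mir208a, a cardiac miRNA, was the 1 gene that passed with the common dispersion added. The heart list (Mir208a, Mir208b and Mir499, 3 of 3 detected) held 0.0361% of counts in replicate 1 and 0.0042% in replicate 2. Mir208a had 299 CPM in replicate 1, against 11.6 CPM in replicate 2. It made up 1533 of the 1853 heart counts in replicate 1 and 27 of 98 in replicate 2. Mir208b and Mir499 differed less, being 2.02-fold and 2.49-fold higher in replicate 1, and did not pass with the common dispersion added. The list thus lay on the same side as Mir144, Mir451a, Mir223 and Mir150, and as 97 of the 169 genes called. Mir146, Mir155 and the erythroid Mir486, described below, lay on the other side. The hepatocyte miRNA Mir122 is of interest because the fetal liver makes red cells. It was on the other side, with 115 counts or 22.4 CPM in replicate 1, against 92 counts or 39.5 CPM in replicate 2. It did not pass with the common dispersion added. The endothelial Mir126a had 76033 CPM in replicate 1, against 58438 CPM in replicate 2. The smooth muscle list held 7.98% of counts in replicate 1 and 6.20% in replicate 2. Most of it was Mir143, at a log2 ratio of 0.46, while Mir145a lay at 0.03. The epithelial list was close to equal in sum, with 3.33% of counts in replicate 1 and 3.37% in replicate 2 (log2 ratio of TMM-scaled sums 0.07). The sum of the mesenchymal list, Mir214 and the miR-199 genes, was 0.908% in replicate 1 and 1.03% in replicate 2 (-0.09). Mir214 made up most of that sum and lay at a log2 ratio of -0.07. The miR-199 genes were further apart, at -1.56 for Mir199a-1 (15 and 26 counts), -0.35 for Mir199a-2 and -0.26 for Mir199b. The part of heart tissue, liver, vessels or blood content in the differences of the blood genes was not tested.

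Further blood miRNAs were taken from a list of 7, of which Mir486, Mir342, Mir146b and Mir142b were in the tables. Mir486 and Mir342 had enough counts for a ratio between libraries, and both lay within 1.5-fold. Mir486, an erythroid miRNA in an intron of the ankyrin gene Ank1 (chromosome 8, 23142555 to 23142682, plus strand), had 45 counts in replicate 1, or 8.77 CPM (6.40 to 11.7), and 30 counts in replicate 2, or 12.9 CPM (8.68 to 18.4). Its log2 ratio of replicate 1 to replicate 2 was -0.42 and did not pass (exact binomial adjusted p = 0.314). Mir451a exceeded it by 45.0-fold in replicate 1, and in replicate 2 by 26.5-fold. Of the 109 windows of 20 nt in its hairpin, 6 also occur on the opposite strand of the same hairpin, and Mir3107 is annotated there, so reads of Mir486 can map more than once and its level is uncertain. No window of the 6 blood genes did so.

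Mir342, a miRNA of an Evl intron (chromosome 12, 108658620 to 108658718, plus strand) that is abundant in lymphoid and myeloid cells, had 4329 CPM in replicate 1 (4273 to 4386) and 5847 CPM in replicate 2 (5749 to 5946). It exceeded each of the 6 blood genes in both libraries, and was lower in replicate 1, its log2 ratio being -0.34 (exact binomial adjusted p = 3.62e-103). With the common dispersion added, its adjusted p was 1 in edgeR's exact test. It is not restricted to blood, and which cells of the lung made it was not tested.

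Reads at the locus of Mir142 outnumbered those of each of the 6 blood genes but are not in the counts above. The tables list Mir142b (chr11:87756841-87756955, minus strand), where Mir142, a miRNA made throughout the white blood cell lineages, is annotated on the plus strand (87756864 to 87756927) within an intron of Mir142hg. Mir142b had 0 counts on its own strand in both libraries, for which the limit was set at 3 counts, or 0.585 CPM for replicate 1 and 1.29 CPM for replicate 2 (the exact binomial interval reaches 0.719 CPM and 1.58 CPM). On the opposite strand it had 4187 counts in replicate 1 and 1712 counts in replicate 2. Per 1000000 gene-strand counts these are 816 in replicate 1 and 734 in replicate 2, a mean of 775 ± 58.2 (SD, n = 2).

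The RefSeq hairpin of Mir142 is shown because its strand is the one that held the reads, with miR-142a-5p and miR-142a-3p in capitals.
Mir142: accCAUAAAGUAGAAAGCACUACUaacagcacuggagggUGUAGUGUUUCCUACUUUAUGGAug
The annotated product of the other strand is shown with its seed in capitals.
miR-142b: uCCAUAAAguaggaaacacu
The letters of miR-142b are the reverse complement of bases within Mir142, and each mature miR-142a sequence has its reverse complement in the Mir142b hairpin, so strand is what separates the 2 genes. Opposite-strand counts at Mir142b exceeded gene-strand counts of Mir223 by 1.39-fold in replicate 1, a log2 ratio of 0.47 (0.40 to 0.54), and by 1.36-fold in replicate 2, a log2 ratio of 0.44 (0.34 to 0.55). These ratios moved by 0.03 between libraries, against 0.79 for Mir451a and Mir144.

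The 6 blood genes had 0 opposite-strand counts in both libraries, as had 88.6% of 254 genes with at least 50 gene-strand counts in each library. Adding the opposite-strand counts of Mir142b to the white blood cell genes, a choice made with those counts known, put their share at 0.162% and the log2 ratio of erythroid to white blood cell counts at -1.74 in replicate 1 and -2.01 in replicate 2.

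**Figure D4:**
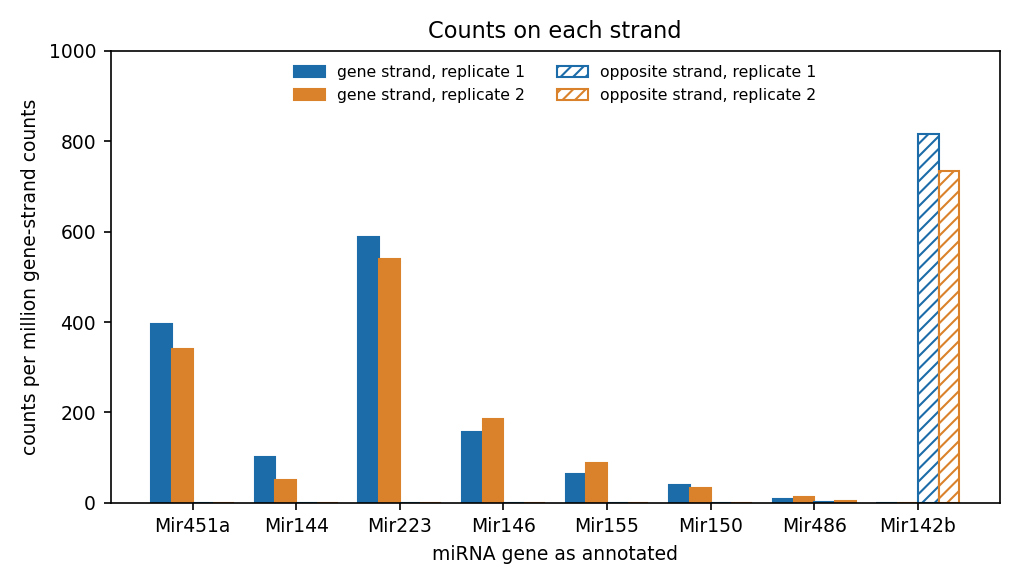
Counts per 1000000 gene-strand counts for each gene as annotated, with filled bars for the gene strand, hatched bars for the opposite strand and colours for the replicates. Mir142b shows 816 in replicate 1 and 734 in replicate 2 on the opposite strand and 0 on its own, while the 6 blood genes have 0 on the opposite strand.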

How the data were processed

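The authors deposited whole-number counts per miRNA gene for each library, not normalized, derived from mm10 alignments with GENCODE annotation M4, per the deposited readme. No aligner, counter or trimming step is named in the readme or the labels. The column names are not given either: the column with the larger total was taken as the gene strand, and the column without regard to strand equals the sum of the others. Summary entries stayed out of library sizes. Multimapping reads, in no gene, were 32.9% of reads in replicate 1 and 33.1% in replicate 2, unmapped reads 12.7% and 11.7%. Of 1973 identifiers 1894 matched GENCODE M21, which gave symbols and mm10 coordinates.

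CPM, exact (Clopper-Pearson) intervals and binomial tests with Benjamini-Hochberg adjustment over all 404 genes with at least 10 counts were computed in Python 3.11.15 with scipy 1.17.1. TMM factors and the exact test with common dispersion came from edgeR 4.0.16, and alternative size factors from DESeq2 1.42.0. The binomial procedure was tested on simulated counts. The libraries are separate biological replicates by label, so p-values measure differences between these libraries only. Members and lists were chosen with earlier results of these data known. The genes named are the 6 members, 7 further blood miRNAs, the 2 genes nearest in level to Mir451a and to Mir223 and the leading compartment miRNAs. Mir208b, Mir499, Mir145a, the miR-199 genes and Mir3107 fall outside this rule and were chosen after their values or positions had been seen. No column lacked a sample (0 columns).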

Additional observations from a re-analysis of the deposited data

Results flagged for a closer look

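Counts on the strand opposite to the annotated gene are outside the gene-strand counts from which CPM were made. At loci of blood miRNAs they passed the 3 counts that a count of 0 allows at Mir142b and Mir486. Mir142b had 4187 opposite-strand counts in replicate 1 and 1712 in replicate 2. Mir486 had 4 opposite-strand counts in replicate 1 and 9 in replicate 2, beside 45 and 30 on its own strand.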

How the results depend on the processing

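With multimapping and other unassigned reads in the denominator, the erythroid share was 0.0257% and the white blood cell share 0.049%. Without the leading member of each list (Mir451a, Mir223) the shares were 0.00766% and 0.0283% and the log2 ratio of erythroid to white blood cell counts -1.97. With the further blood miRNAs the white blood cell share was 0.594%, the added part nearly all Mir342, and the ratio -3.70. In the column without regard to strand the white blood cell share was 0.0824%. With opposite-strand counts at Mir142b, added after the data had been seen, that share was 0.162% and the ratio -1.88, or -1.84 with Mir486 as well. Geometric means, which weigh each member equally, turned the mean ratio to 0.35 ± 0.49 (SD, n = 2), with replicate 2 nearly level at 0.00313. Leaving out either replicate gave erythroid shares of 0.0392% to 0.0497%, a white blood cell share of 0.0848% either way, lineage ratios of -1.12 to -0.77 and Mir451a to Mir144 ratios of 1.95 to 2.74. With the common dispersion, estimated from the very libraries compared, 1 gene was called, against 169. No direction of the 6 genes between replicates changed under 8 alternatives each, but most of these could hardly change one. The count filters and edgeR's exact test leave the log2 ratio as it is, and a pseudocount cannot turn its sign. The column without regard to strand adds no counts to these genes. Library totals and DESeq2 size factors were the alternatives most able to change a direction. Against library totals, the scaling factors alone move a log2 ratio, before 1 CPM is added, by 0.14 (DESeq2) or 0.09 (TMM). At 78 and 119 counts, depth limits Mir150 and Mir144 in replicate 2 most among the 6 genes. No paired analysis was possible because the 2 libraries form 1 group.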
